A study of Mus musculus with 13 samples.

Results

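The 10 genes described here encode the transporters that carry bile acids, phospholipid and organic anions across the membranes of the hepatocyte: Abcb11, Abcb4, Abcc2, Abcc3, Abcc4, Slc10a1, Slco1a1, Slco1a4, Slco1b2 and Slco2b1. They were chosen by gene symbol, with every probe that the array file names for them, which gave 13 probes for 10 genes among the 19507 genes and 25011 probes tested. All 13 probes passed the filter on dim probes, and each was well above background on all 13 arrays. Levels are log2 signals after subtraction of the 75th percentile of the array, called scaled log2 signal, so that 0 is the level of that percentile. Different probes bind with different strength, and levels were compared between groups within a probe only.

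Liver RNA came from female C57BL6 mice of 12 weeks, 1 one-colour array per sample, in 3 groups. The HFHS vehicle group (5 arrays) received the diet labelled HFHS, described in the series text as a high fat diet. The ST vehicle group (3 arrays) received the standard diet with vehicle, and the ST pollutants group (5 arrays) the same diet with 4 pollutants given as a mixture. The composition of the diets, the pollutants, their dose and the length of exposure are not given in the sources used here. The labels call the samples of a group biological replicates. Among the samples used here, none combined the HFHS diet with the pollutants.

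Bile acids are taken from portal blood into the hepatocyte across its sinusoidal membrane, mainly by the sodium-dependent carrier encoded by Slc10a1 and by sodium-independent carriers of the Slco family. They leave across the canalicular membrane into bile, where the bile salt export pump, encoded by Abcb11, is the rate-limiting step, and where Abcb4 adds phosphatidylcholine and Abcc2 conjugated organic anions. Abcc3 and Abcc4 sit in the basolateral membrane and return bile acids and conjugates to blood, a route known to gain weight in cholestasis. The farnesoid X receptor, encoded by Nr1h4, senses bile acids and is known to activate Abcb11 through an inverted repeat of its half-site with 1 base between, called IR-1.

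The promoter of Abcb11 is shown because this gene gave the only member call, with the IR-1 match in capitals. It spans the 250 bases before the RefSeq start at chr2:69342617-69342866 on the minus strand of GRCm38.p6, and the match lies 62 to 52 bases before the start.

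Abcb11 promoter: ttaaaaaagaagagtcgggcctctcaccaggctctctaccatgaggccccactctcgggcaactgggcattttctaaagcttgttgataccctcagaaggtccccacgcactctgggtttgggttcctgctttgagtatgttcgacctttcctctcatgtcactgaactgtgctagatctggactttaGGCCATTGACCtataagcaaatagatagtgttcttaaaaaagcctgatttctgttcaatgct

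The IR-1 motif, GGTCA and TGACC with any base between them, was searched with at most 1 mismatch on both strands of the 250 bases before each RefSeq start. It was found in 205 of 32851 promoters, or 0.624%. Of the members, 9 of 10 had a promoter in the table (Abcc3 had none). Members were counted by gene but the shares of all by promoter, and Slco2b1 had 3 promoters, Abcc4 2 and Slc10a1 2. The motif was held by 2 members, with the matched bases below.

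Abcb11: GGCCATTGACC
Slco1b2: GGACAGTGACC

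The Slco1b2 match lies 87 to 77 bases before its start. A core of the xenobiotic response element, GCGTG, was found in the promoters of Abcb11, Abcb4 and Abcc4, and in 28.2% of all promoters. A core of the antioxidant response element, TGACNNNGC, was found in those of Abcc2 and Abcc4, and in 10.2% of all. These are matches of letters and not measured binding sites.

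Same-group arrays correlated across genes at 0.977 to 0.992 and arrays of different groups at 0.973 to 0.992, over genes that are not independent replicates. Slides 1, 2 and 5 held all 3 groups, and slides 3 and 4 held HFHS vehicle and ST pollutants arrays only. Hepatocyte markers (10 of 10 measured) had mean scaled log2 signals of 8.07 to 8.53 in HFHS vehicle, 8.36 to 8.64 in ST vehicle and 8.28 to 8.60 in ST pollutants. Transcripts of pancreatic acinar cells (10 of 12 measured) stood at 4.87, 3.61 and 6.97 in HFHS vehicle replicates 3, 4 and 5, against -3.62 to -1.84 on the other 10 arrays. Means of macrophage (2.14 to 2.98 over the 13 arrays, 9 of 9 measured), endothelial (0.95 to 1.23, 8 of 8), stellate (-0.65 to -0.17, 8 of 8), adipocyte (-4.82 to -0.93, 5 of 6) and skeletal muscle (-5.19 to 0.12, 5 of 6) markers overlapped between the groups. Pericentral hepatocyte markers (10 of 10) stood at 3.45 to 3.53 in HFHS vehicle and 3.64 to 3.73 in ST vehicle, and female-biased genes (12 of 14) at 3.20 to 3.64 in HFHS vehicle and 2.93 to 3.20 in ST pollutants. For several genes, the comparisons with HFHS vehicle are also given without these 3 arrays.

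The question set by the series title is what the pollutant mixture and the high-fat diet each change, and what they share. Abcb11 read 1.43-fold lower in ST pollutants than in ST vehicle, and was the only transporter of the 10 to pass the threshold in any of the 3 comparisons. That call held in 17 of 26 alternative ways of processing. Abcb11 also read 1.25-fold lower in HFHS vehicle than in ST vehicle, without a call, and HFHS vehicle against ST pollutants gave no call either. Abcc3 and Abcc4 read 1.38-fold and 1.53-fold higher with pollutants, without passing the threshold. The uptake carriers gave no call in any comparison. Each comparison was a contrast of a single limma model of all 13 arrays, with p-values adjusted over the 19507 genes (Benjamini-Hochberg), and adjusted p under 0.05 was the threshold for a call.

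**Figure D1:**
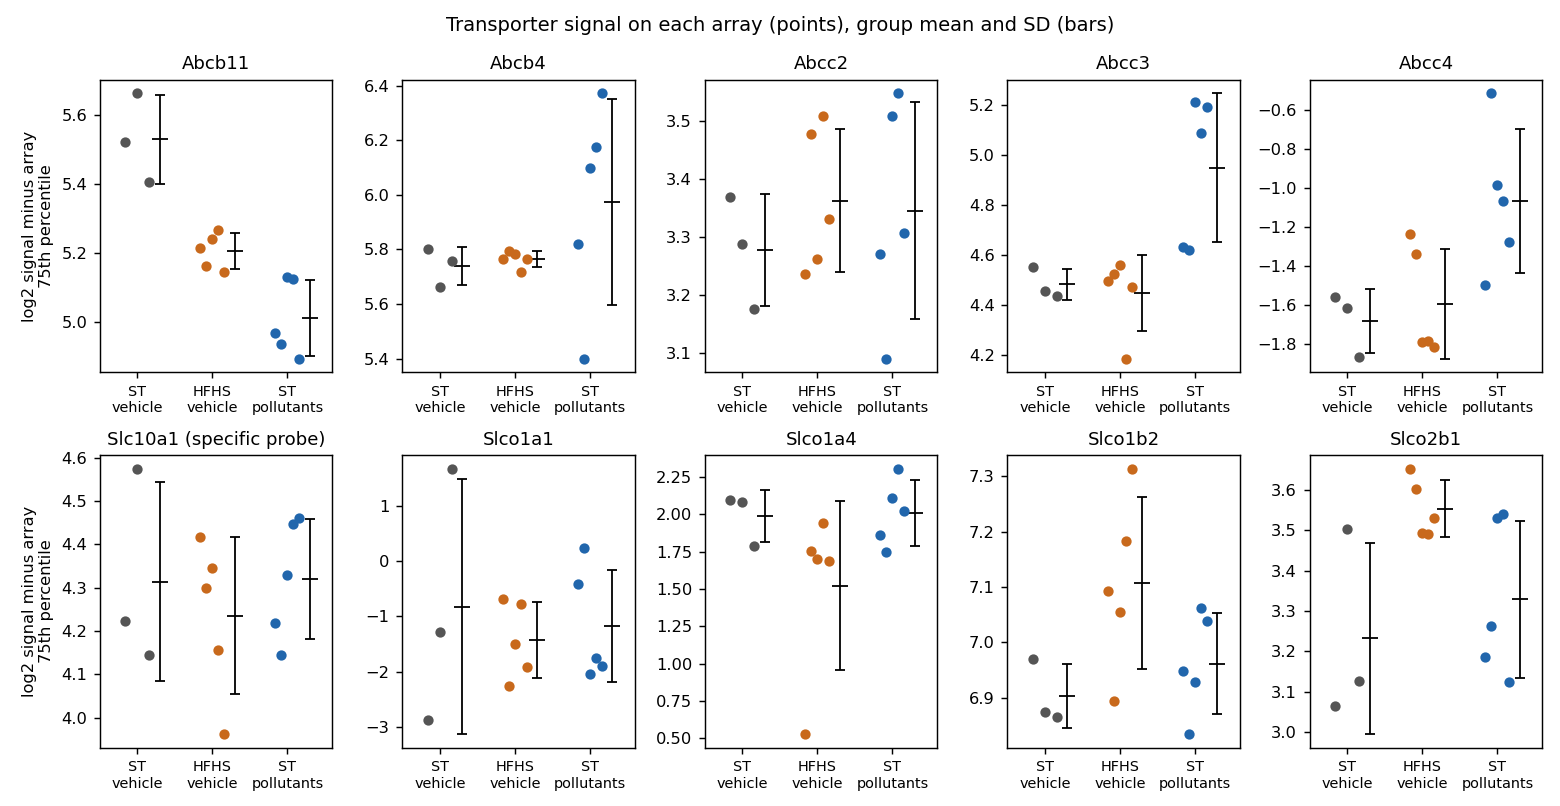
Scaled log2 signal (log2 signal minus the 75th percentile of the array) of the 10 transporters on each of the 13 arrays, 1 point per array, with the group mean and SD as a bar beside the points. The vertical axes differ between genes. Abcb11 separates the 3 groups without overlap, with ST vehicle at 5.41 to 5.67, HFHS vehicle at 5.15 to 5.27 and ST pollutants at 4.89 to 5.13.

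In ST pollutants against ST vehicle, 1 of 10 members was called, as a lower gene, where 0.984% of all genes tested were called and 0.441% were called lower. Members whose 2 groups did not overlap numbered 3 of 10, with Abcc3 and Abcc4 higher and Abcb11 lower, against 3.93% of all genes higher and 4.39% lower without overlap. An unadjusted p under 0.05 was found for these 3 of 10 members and for 12.1% of all genes. The median log2 fold change of the members was 0.06, and that of all genes tested was -0.01.

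In HFHS vehicle against ST vehicle, 0 of 10 members were called by limma, against 0.687% of all genes. Here 2 of 10 had an unadjusted p under 0.05, Abcb11 (lower) and Slco2b1 (higher), a share to be read against 12.1% of all genes. Abcb11 alone had groups that did not overlap, lower on the HFHS diet, as did 5.33% of all genes. The members' median log2 fold change was -0.005 and that of all genes -0.02.

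In HFHS vehicle against ST pollutants, the direct test of the difference between the 2 treatments, 0 of 10 members were called by limma, against 3.87% of all genes. Abcb11, Abcc3 and Abcc4 had an unadjusted p under 0.05, 3 of 10 members against 18.3% of all genes. Without overlap were 2 of 10, Abcb11 higher and Abcc3 lower in HFHS vehicle, against 2.74% and 4.19% of all genes in those directions. The medians were -0.09 for the members and -0.005 for all genes. The first 2 comparisons share the ST vehicle arrays, so that their values are given side by side for each gene and not correlated.

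**Figure D2:**
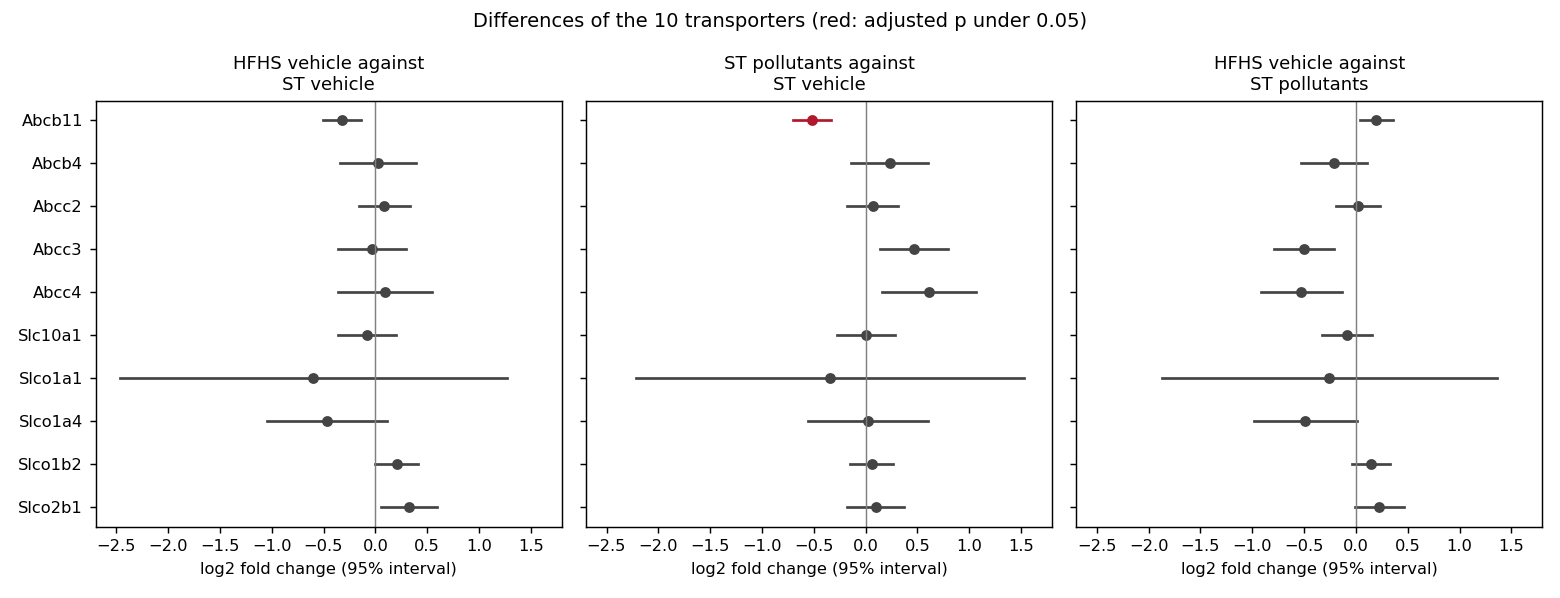
Log2 fold change of each transporter in the 3 comparisons, as a point with its 95% interval from the limma model. Slc10a1 is shown by its specific probe. The only value past the threshold, in red, is that of Abcb11 in ST pollutants against ST vehicle, at -0.52 with an interval of -0.70 to -0.34.

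Abcb11, the bile salt export pump, was read by a single probe (mm9 chr2:69076365-69076424, minus strand, from base 4809 of NM_021022). Its scaled log2 signal was 5.52, 5.67 and 5.41 in ST vehicle replicates 1 to 3. The ST pollutants arrays gave 4.97, 4.94, 5.13, 5.13 and 4.89 in replicates 1 to 5. The HFHS vehicle arrays gave 5.22, 5.16, 5.24, 5.27 and 5.15. The 3 groups do not overlap: every ST vehicle array lies above every HFHS vehicle array, and those above every ST pollutants array. That order without overlap was seen in 9 of the 19507 genes (0.0461%), and 55 genes (0.282%) had 3 groups without overlap in any order.

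The difference of Abcb11 between ST pollutants and ST vehicle was -0.52 ± 0.08 on the log2 scale (SE of the model, n = 5 and 3, limma adjusted p = 0.0197). Between HFHS vehicle and ST vehicle it was -0.32 ± 0.08, with a 95% interval of -0.51 to -0.14 and a limma adjusted p of 0.124. The direct difference of HFHS vehicle from ST pollutants was 0.19 ± 0.07, with an interval of 0.04 to 0.35 and a limma adjusted p of 0.171, and it was 0.06 with normexp background correction. A lower signal in whole liver can come from fewer cells that express the gene or from less RNA per cell, and the 2 cannot be told apart in these samples.

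Since the 3 groups do not overlap, the order on each slide was fixed, and only the size of the differences could vary. The difference of ST pollutants from ST vehicle was -0.55, -0.73 and -0.51 on slides 1, 2 and 5. That of HFHS vehicle from ST vehicle was -0.31, -0.50 and -0.26 on those slides. HFHS vehicle exceeded ST pollutants by 0.25, 0.23, 0.11, 0.14 and 0.25 on the 5 slides in order. With slide as a block in the model, the difference of ST pollutants from ST vehicle was -0.57 (limma adjusted p = 0.0294).

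The fold change of Abcb11 kept its sign under all alternatives, while its adjusted p crossed the threshold. Leaving out arrays could not turn the sign, since the ST pollutants and ST vehicle arrays do not overlap. Some alternatives could not move the fold change at all. Abcb11 has a single probe, and HFHS vehicle arrays do not enter the difference of ST pollutants from ST vehicle. A fit without a probe of Slc10a1 changed the values of that gene only. Over 26 other ways of processing or leaving out arrays, the difference of ST pollutants from ST vehicle lay between -0.58 and -0.45, and the limma adjusted p lay between 0.0152 and 0.411, under the threshold in 17 of 26. Without ST vehicle replicate 1 the adjusted p was 0.0708, and without ST vehicle replicate 2 it was 0.0715. The call was also lost with normexp background correction (adjusted p = 0.411), median scaling (0.146), the authors' deposited table (0.112) and only the 2 groups in the fit (0.108). It was lost without the 3 HFHS vehicle arrays high in acinar transcripts, where the difference of -0.52 does not use those arrays and the adjusted p was 0.0610, and without the arrays of slide 1 (0.149).

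**Figure D3:**
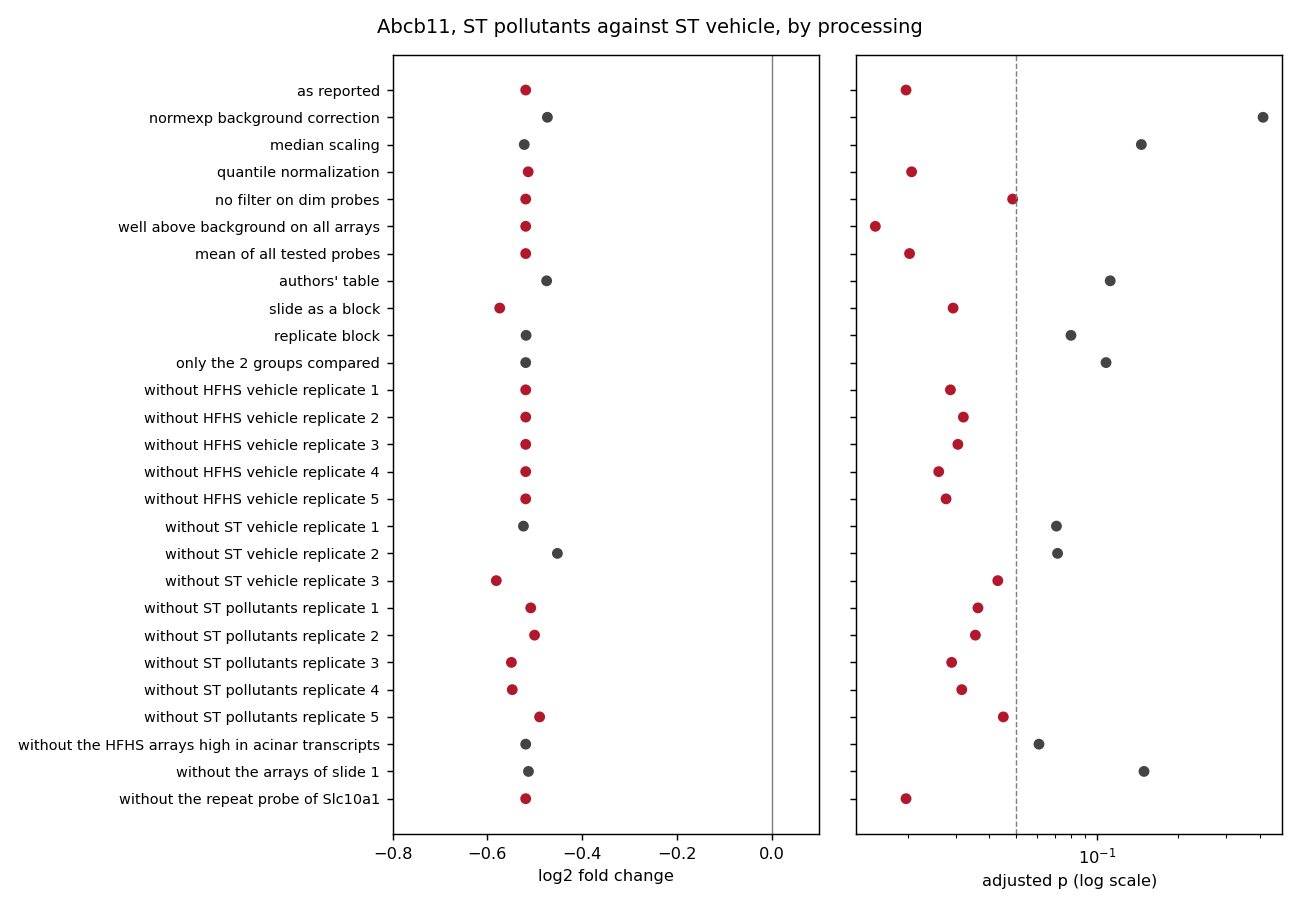
Log2 fold change (left) and limma adjusted p (right, log axis, dashed line at 0.05) of Abcb11 in ST pollutants against ST vehicle, with 1 row for each way of processing the data. Red points are under the threshold. The fold change stays between -0.58 and -0.45, while the adjusted p lies on either side of the line. Rows that only leave out HFHS vehicle arrays or change the choice of probes cannot move the fold change.

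The genes most like Abcb11 over the 13 arrays, by Pearson correlation of scaled log2 signals, were Slc30a10 (r = 0.931), Stra6l (r = 0.913) and Ethe1 (r = 0.909). Slc30a10 encodes a manganese exporter, Stra6l a retinol-binding protein receptor and Ethe1 a mitochondrial persulfide dioxygenase. Their log2 fold changes in ST pollutants against ST vehicle were -1.45, -0.84 and -1.12. In HFHS vehicle against ST vehicle they were -0.89, -0.33 and -0.69. These genes were picked by their correlation with Abcb11, so changes in its direction follow from the choice. The correlations describe 13 arrays that share groups and slides and carry no test.

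Abcb4, the canalicular phospholipid floppase, had similar means in the groups but a wider spread with pollutants. Its brighter probe (mm9 chr5:8959108-8959167, plus strand, from base 3956 of NM_008830) read 5.80, 5.66 and 5.76 in ST vehicle and 5.72 to 5.79 in the 5 HFHS vehicle arrays. With pollutants it read 5.82, 5.40, 6.10, 6.17 and 6.37 in replicates 1 to 5. The pollutant arrays lie on both sides of the ST vehicle range, with SDs of 0.38 against 0.07. The difference of ST pollutants from ST vehicle was 0.23 ± 0.17 (95% interval -0.14 to 0.60), with a limma adjusted p of 0.702. On slides 1, 2 and 5 it was 0.02, -0.26 and 0.62. A second probe, on the cDNA AK165484 (mm9 chr5:8899682-8899741, plus strand), gave 0.21 ± 0.18.

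Abcc2, the canalicular exporter of conjugated bilirubin and other organic anions, differed little. Its probe (mm9 chr19:43912079-43912138, plus strand, from base 4759 of NM_013806) read 3.18 to 3.37 in ST vehicle, 3.24 to 3.51 in HFHS vehicle and 3.09 to 3.55 in ST pollutants. The 3 ranges overlap. The differences were 0.09 ± 0.11 for HFHS vehicle and 0.07 ± 0.11 for ST pollutants against ST vehicle, with 95% intervals of -0.16 to 0.33 and -0.18 to 0.31. At their upper ends these intervals reach 1.26-fold and 1.24-fold.

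Abcc3, a basolateral exporter of glucuronides and bile acids, was read by a probe at mm9 chr11:94204612-94204671 (minus strand, from base 4939 of NM_029600). Its scaled log2 signal was 4.55, 4.46 and 4.44 in ST vehicle and 4.50, 4.52, 4.56, 4.18 and 4.47 in HFHS vehicle. The values with pollutants were 4.63, 4.62, 5.21, 5.09 and 5.19. Every pollutant array lies above every array of the other 2 groups, replicates 1 and 2 by little and replicates 3 to 5 by more. The ST vehicle and HFHS vehicle ranges overlap.

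The Abcc3 difference of ST pollutants from ST vehicle was 0.47 ± 0.15 (95% interval 0.14 to 0.80), with a limma adjusted p of 0.203. HFHS vehicle differed from ST vehicle by -0.03 ± 0.15, and from ST pollutants by -0.50 ± 0.13, with an interval of -0.79 to -0.21 and a limma adjusted p of 0.0578. This last difference passed the threshold without ST pollutants replicate 1 (-0.58, adjusted p = 0.0369) and without ST pollutants replicate 2 (-0.58, 0.0339). It passed also where only probes well above background on all arrays were tested (adjusted p = 0.0498), and in no other of the 26 alternatives.

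The size of the Abcc3 difference varied with the slide. ST pollutants exceeded ST vehicle by 0.08, 0.16 and 0.76 on slides 1, 2 and 5. HFHS vehicle differed from ST pollutants by -0.14, -0.10, -0.65, -0.90 and -0.72 on slides 1 to 5. Abcc3 is also known in bile duct cells, whose markers (7 of 9 measured) had mean scaled log2 signals of -1.68 to -1.48 in ST vehicle, -2.14 to -1.84 in HFHS vehicle and -2.06 to -1.37 in ST pollutants. Their part in the result was not tested.

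Abcc4, the basolateral exporter of bile acids and cyclic nucleotides, had the largest difference of the 10 members between ST pollutants and ST vehicle, without a call. Its probe lies at mm9 chr14:118882104-118882163 (minus strand, from base 5479 of NM_001033336). The scaled log2 signal was -1.56, -1.62 and -1.87 in ST vehicle, and -1.23, -1.34, -1.79, -1.79 and -1.81 in HFHS vehicle. The pollutant arrays read -1.50, -0.51, -0.98, -1.06 and -1.27. All pollutant arrays lie above the ST vehicle arrays, and they overlap with HFHS vehicle.

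The Abcc4 difference of ST pollutants from ST vehicle was 0.61 ± 0.21 (95% interval 0.16 to 1.07), with a limma adjusted p of 0.225. HFHS vehicle differed from ST vehicle by 0.09 ± 0.21 and from ST pollutants by -0.53 ± 0.18, with a limma adjusted p of 0.134 for the latter. Leaving out the 3 acinar-high HFHS vehicle arrays gave 0.40 and -0.22, and normexp background correction 0.31 and -0.22. On slides 1, 2 and 5 ST pollutants exceeded ST vehicle by 0.06, 1.104 and 0.59.

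Slc10a1, the sodium-taurocholate cotransporter and main uptake carrier of conjugated bile acids, had 2 probes of unlike quality. They are shown because the choice between them decides what the gene's value stands for. The brighter probe (mm9 chr12:82056539-82056598, minus strand, from base 1386 of NM_011387) is a repeat-like sequence. Its array file lists transcripts of Slc10a1, 4930402H24Rik, Spc24 and Med16 for it, and 15-base stretches of it occur in 24 probes of other genes and in 68 promoters of other genes. The other probe (mm9 chr12:82061470-82061529, minus strand, from base 598) shares such a stretch with 0 probes of other genes and with 1 promoter. Of the repeat probe 30 bases are printed, from chr12:82056569-82056598, with the 26 bases shared with a probe of another gene in capitals, and the specific probe is printed whole.

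Slc10a1 repeat probe, 30 bases: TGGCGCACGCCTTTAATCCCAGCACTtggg
Slc10a1 specific probe: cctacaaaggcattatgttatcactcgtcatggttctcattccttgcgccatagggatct

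The specific probe read 4.22, 4.57 and 4.15 in ST vehicle and 4.42, 4.30, 4.35, 4.16 and 3.96 in HFHS vehicle. The ST pollutants values were 4.22, 4.14, 4.33, 4.45 and 4.46. The 3 ranges overlap. With this probe standing for the gene, the differences were -0.08 ± 0.13 for HFHS vehicle and 0.01 ± 0.13 for ST pollutants against ST vehicle, with 95% intervals of -0.36 to 0.20 and -0.28 to 0.29. The repeat probe gave -0.04 ± 0.11 and -0.06 ± 0.11. No limma adjusted p of either probe was under 0.817 in the 3 comparisons.

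**Figure D4:**
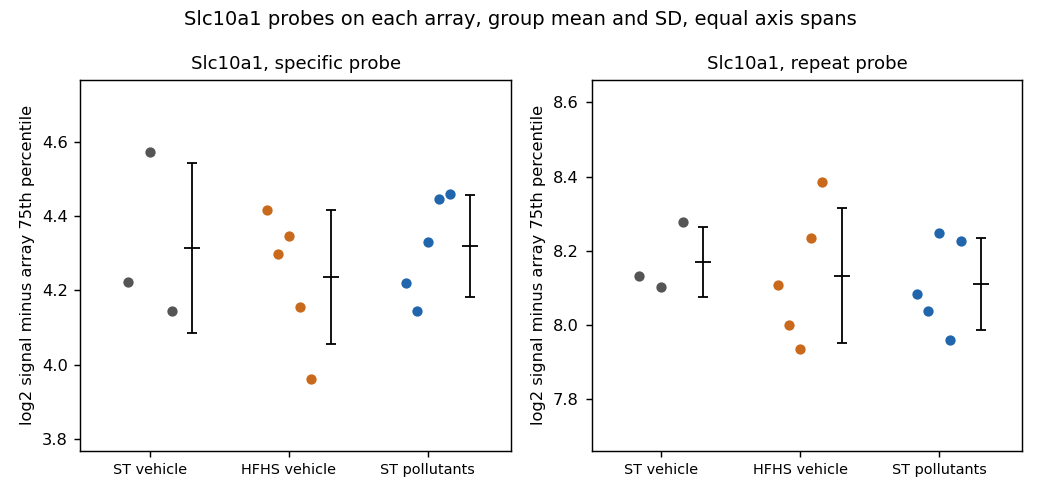
Scaled log2 signal of the 2 Slc10a1 probes on the 13 arrays, 1 point per array, with group mean and SD. The axes have the same span and different levels. On both probes the 3 groups overlap, and the order of the arrays within a group differs between the probes: HFHS vehicle replicate 5 is the lowest of its group on the specific probe (3.96) and the highest on the repeat probe (8.39).

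Slco1a1, an uptake carrier known for higher expression in male than in female mouse liver, varied most. Its probe (mm9 chr6:141856493-141856552, minus strand, from base 3216 of NM_013797) read -2.88, -1.28 and 1.67 in ST vehicle. It read -0.69, -2.25, -1.49, -0.78 and -1.91 in HFHS vehicle and -0.41, 0.23, -2.03, -1.75 and -1.89 in ST pollutants. The ST vehicle arrays span the ranges of both other groups, and replicate 3 stands above all other arrays.

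The differences of Slco1a1 were -0.60 ± 0.86 for HFHS vehicle and -0.34 ± 0.86 for ST pollutants against ST vehicle, with 95% intervals of -2.47 to 1.27 and -2.21 to 1.52. Within slides 1, 2 and 5 the HFHS vehicle difference was 2.19, -0.98 and -3.59, so its sign depended on the slide. Without ST vehicle replicate 3 both differences turned, to 0.65 and 0.91. Male-biased liver genes (11 of 13 measured, Slco1a1 not among them) had a mean scaled log2 signal of 2.77 on that array, against 0.80 and 1.08 on the other 2 ST vehicle arrays, 0.81 to 1.15 in HFHS vehicle and 0.71 to 1.65 in ST pollutants. The next-highest mean, 1.65, belonged to ST pollutants replicate 1, whose Slco1a1 signal of -0.41 was the second highest of its group. The part of these genes in the result was not tested.

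**Figure D5:**
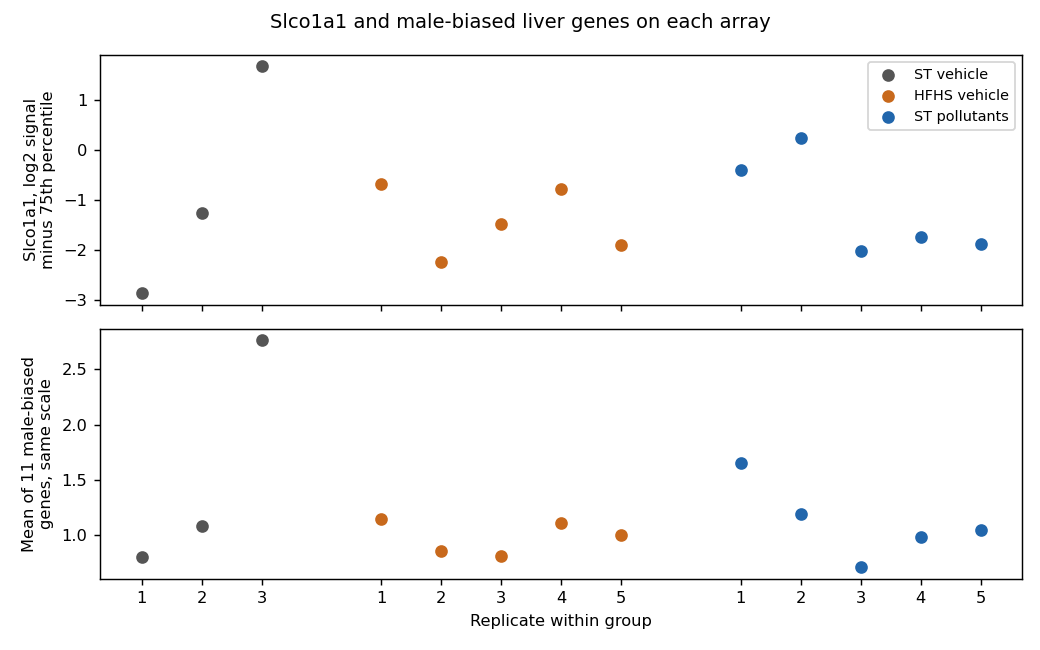
Scaled log2 signal of Slco1a1 (top) and the mean of 11 male-biased liver genes (bottom) on each of the 13 arrays, ordered by group and replicate. ST vehicle replicate 3 is the highest array in both panels, at 1.67 and 2.77.

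Slco1a4, an uptake carrier of bile acids, steroids and cardiac glycosides, read lower on 1 HFHS vehicle array. Its probe (mm9 chr6:141754675-141754734, minus strand, from base 3049 of NM_030687) read 2.10, 2.08 and 1.79 in ST vehicle and 0.52, 1.76, 1.70, 1.94 and 1.69 in HFHS vehicle. Its values with pollutants were 1.86, 1.74, 2.11, 2.31 and 2.02. HFHS vehicle overlaps with both other groups, and its replicate 1 lies below all other arrays.

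The Slco1a4 difference of HFHS vehicle from ST vehicle was -0.47 ± 0.27 (limma adjusted p = 0.561), and from ST pollutants -0.49 ± 0.23 (limma adjusted p = 0.291). Without HFHS vehicle replicate 1 they were -0.22 and -0.24, and without the 3 HFHS vehicle arrays high in acinar transcripts -0.85 and -0.87. Periportal hepatocyte markers (10 of 10 measured) were lowest on the same HFHS vehicle array. Their mean was 4.13 there, against 4.23 to 4.63 on the other 4 arrays of its group. Pericentral markers read 3.50 on that array, within the group's range of 3.45 to 3.53, and hepatocyte markers 8.20, within 8.07 to 8.53. The part of these markers was not tested. ST pollutants differed from ST vehicle by 0.02 ± 0.27, with a 95% interval of -0.56 to 0.60.

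Slco1b2, the main liver-restricted uptake carrier of organic anions in mice, differed by small amounts. Its probe (mm9 chr6:141634476-141634535, plus strand, from base 2615 of NM_020495) read 6.97, 6.87 and 6.87 in ST vehicle and 7.09, 6.89, 7.05, 7.18 and 7.31 in HFHS vehicle. The pollutant values were 6.95, 6.83, 6.93, 7.06 and 7.04. HFHS vehicle read higher in 4 of 5 arrays than any ST vehicle array, so the groups overlap by 1 array. The difference was 0.20 ± 0.10 (limma adjusted p = 0.422), and it was 0.09 without the 3 acinar-high arrays and 0.02 with normexp background correction. HFHS vehicle against ST pollutants gave 0.15 ± 0.08 (limma adjusted p = 0.399), called only with quantile normalization (0.30, adjusted p = 0.0352). Without those 3 arrays it was 0.03.

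Slco2b1, a broadly expressed carrier of steroid sulfates, was measured by 2 probes that overlap on the same transcript and so share sequence. The brighter one (mm9 chr7:106806923-106806982, minus strand, from base 3966 of NM_001252530) read 3.06, 3.50 and 3.13 in ST vehicle and 3.65, 3.60, 3.49, 3.49 and 3.53 in HFHS vehicle. In ST pollutants it read 3.19, 3.26, 3.53, 3.54 and 3.12. Replicate 2 of ST vehicle lies within the HFHS vehicle range, and the other 2 ST vehicle arrays below it.

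The Slco2b1 difference of HFHS vehicle from ST vehicle was 0.32 ± 0.12, with a 95% interval of 0.05 to 0.59 and a limma adjusted p of 0.306. The overlapping probe (from base 3988) gave 0.34 ± 0.14. Within slides 1, 2 and 5 the difference was 0.59, 0.10 and 0.40. ST pollutants differed from ST vehicle by 0.10 ± 0.12.

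The other genes of the pathway were counted from 4 lists. Of 28 other hepatic transporters measured out of 34 listed, 0 were called by limma in either comparison with ST vehicle. Of all genes 0.687% (HFHS vehicle) and 0.984% (ST pollutants) were called. An unadjusted p under 0.05 was found for 5 (HFHS vehicle) and 7 (ST pollutants), against 12.1% of all genes in each. Between HFHS vehicle and ST pollutants 2 of 28 were called, both lower, against 3.87% of all genes. An unadjusted p under 0.05 was found there for 12 of 28, against 18.3% of all genes. Slco4a1, a carrier of thyroid hormone and organic anions, differed by -0.99 ± 0.23 (limma adjusted p = 0.0338), from group means of -3.38 and -2.39. Tmem30a, the partner of canalicular phospholipid flippases, differed by -0.31 ± 0.08 (limma adjusted p = 0.0445), from 2.34 and 2.65. The Slco4a1 difference was -0.17 with normexp background correction, and its call was lost without any 1 of HFHS vehicle or ST pollutants replicates 2, 3, 4 and 5 (limma adjusted p 0.0514 to 0.0764) and with slide as a block (0.0758). That of Tmem30a was lost on leaving out any array but HFHS vehicle replicate 4 (up to 0.116).

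Proteins that anchor and recycle canalicular transporters, such as ezrin, radixin and Rab11a, formed a list of 16 genes with 14 measured. In HFHS vehicle against ST vehicle, ST pollutants against ST vehicle and HFHS vehicle against ST pollutants, 0 were called by limma. The shares of all genes called were 0.687%, 0.984% and 3.87%. An unadjusted p under 0.05 was found for 2, 2 and 1 of 14, against 12.1%, 12.1% and 18.3% of all genes. The median log2 fold changes of the list were 0.06, 0.06 and -0.07.

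Nuclear receptors and other regulators of transporter genes formed a list of 22 with 21 measured. By limma 0 were called in HFHS vehicle against ST vehicle and 0 in ST pollutants against ST vehicle. Of all genes 0.687% and 0.984% were called there. In these comparisons 3 and 1 of 21 had an unadjusted p under 0.05, against 12.1% of all genes in each. Between HFHS vehicle and ST pollutants 10 of 21 did, against 18.3% of all genes. Foxa3, a liver-enriched forkhead factor, was the only call of the list in HFHS vehicle against ST pollutants, where 3.87% of all genes were called. Its difference was -0.77 ± 0.18 (limma adjusted p = 0.0346), from means of 0.14 and 0.90. That call was lost without any 1 of HFHS vehicle replicates 1, 2, 4 and 5 or ST pollutants replicates 1, 2 and 5 (0.0624 to 0.0883), and with slide as a block (0.0629). Against ST vehicle, Foxa3 differed in HFHS vehicle by -0.99 ± 0.20 (limma adjusted p = 0.0515), which passed the threshold in 3 of 26 alternatives. Nr1i3, the only regulator with an unadjusted p under 0.05 in ST pollutants against ST vehicle, differed there by 0.49 ± 0.13 (limma adjusted p = 0.0966). It was named after its values were seen. Nr1h4, the bile acid receptor named above, and its target Nr0b2 are likewise given after their values were seen, because of their known link to Abcb11. Nr1h4 differed in ST pollutants against ST vehicle by 0.25 ± 0.12 (limma adjusted p = 0.418), and Nr0b2 by -0.48 ± 0.35 (limma adjusted p = 0.696). In HFHS vehicle against ST vehicle the differences were 0.24 ± 0.12 for Nr1h4 (limma adjusted p = 0.450) and -0.07 ± 0.35 for Nr0b2 (limma adjusted p = 0.993).

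Of 17 genes of bile acid synthesis and conjugation, 16 were measured. In HFHS vehicle against ST vehicle, ST pollutants against ST vehicle and HFHS vehicle against ST pollutants, 1, 1 and 2 were called by limma. The shares of all genes called were 0.687%, 0.984% and 3.87%. An unadjusted p under 0.05 was found for 4 of 16 in each comparison, against 12.1%, 12.1% and 18.3% of all genes. Cyp7a1, which controls the rate of bile acid synthesis, was the only call in HFHS vehicle against ST vehicle, 3.96-fold higher (1.99 ± 0.29 on the log2 scale, limma adjusted p = 0.0125). In ST pollutants it was 1.14 ± 0.29 above ST vehicle, with a limma adjusted p of 0.0980. Leaving out ST vehicle replicate 1 (1.68, adjusted p = 0.0596) or replicate 2 (1.91, 0.0507) ended the Cyp7a1 call. It was lost also without the 3 acinar-high arrays (1.88, 0.137), without slide 1 (1.77, 0.0778) and with only the 2 groups in the fit (0.0652).

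Hsd3b7, which acts on the sterol nucleus early in bile acid synthesis, was the only call of that list in ST pollutants against ST vehicle, at -0.72 ± 0.13 (limma adjusted p = 0.0245). Its call was lost without any 1 of the 3 ST vehicle arrays or without ST pollutants replicate 4 (0.0511 to 0.0990). In all it was lost in 11 of 26 alternatives, among them slide as a block (-0.74, limma adjusted p = 0.0940), normexp background correction (0.340) and the fit without slide 1 (0.0878). Between HFHS vehicle and ST pollutants 2 of 16 were called, both higher, against 3.87% of all genes. Baat, which conjugates bile acids with taurine, was 0.32 ± 0.07 higher (limma adjusted p = 0.0315) and Hsd3b7 0.44 ± 0.11 higher (0.0463). The Baat call was lost without any 1 of HFHS vehicle replicates 1, 2, 4 and 5 or ST pollutants replicates 1, 2 and 5 (0.0607 to 0.0835), and that of Hsd3b7 on leaving out any array but HFHS vehicle replicate 5 (up to 0.0983). With slide as a block the limma adjusted p was 0.0547 for Baat and 0.0771 for Hsd3b7.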

How the data were processed

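Total liver RNA of 13 samples was labelled with Cy3 and hybridized to 13 one-colour Agilent arrays. Per the file headers, the authors extracted the spot intensity with Agilent Feature Extraction 11.5.1.1, and its processed signal is the intensity used here. The authors' deposited table of 26082 probes holds values on a log2 scale (column medians 9.28 to 9.30), for which the submitters' processing notes name limma. It was used as an alternative. Each of its 13 columns matched its own array best, while its centring is not given in the sources used here.

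The processed signal was log2-transformed, spots of a probe were averaged, and each array's 75th percentile (782 to 1354 intensity units) was subtracted. Control spots and outlier spots (117 values among the genes tested) were left out. A probe was kept when all arrays of 1 or more groups read it well above background, and the brightest probe stood for a gene. limma 3.58.1 in R 4.3.3 fitted the 3 groups to all 13 arrays with no covariate, and tests are two-sided. Symbols came from RefSeq accessions for 28025 of 39429 probes. For the others they came from a current symbol, a synonym or the name in the array file. Probe positions came from the array files (mm9). Promoters are from RefSeq on GRCm38.p6. Between 62.6% and 69.4% of probes were well above background per array. The number of arrays limits the precision.

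Members, pathway lists and marker lists were chosen with earlier results of these data known. Named genes are all members, up to 4 called genes of each pathway list, and the 3 genes most correlated with a called member. Nr1i3, Nr1h4 and Nr0b2 were added after their values were seen. Marker lists covered hepatocytes and their zones, cholangiocytes, Kupffer, endothelial and stellate cells, acinar cells, adipocytes, muscle and sex-biased genes. The fit was run on simulated data whose noise was drawn independently for each array, which cannot show the effect of shared slides. Replicate numbers were not used as pairs in the model described. Deviations of same-numbered samples correlated at -0.17 to 0.56, over 0.1 in 8 of 11 pairs. Same-numbered samples shared a slide, except that ST vehicle replicate 3 was on slide 5. Deviations of samples on the same slide correlated at -0.02 to 0.56, so the arrays share structure by slide. Slide entered the fit only as an alternative.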

Additional observations from a re-analysis of the deposited data

Results flagged for a closer look

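Among 50 groups of 5 arrays, taken over the members' probes and the marker lists, 2 had a single array far from the others by Dixon's test, where chance gives about 1 in 20. The first is Slco1a4 in HFHS vehicle, where replicate 1 read 0.52 and its nearest neighbour 1.69, a gap of 0.823 of the group's range against a critical value of 0.710. The second is Abcc3 in HFHS vehicle, where replicate 4 read 4.18 and its nearest neighbour 4.47, a gap of 0.766 of the range. Without the latter array, Abcc3 in HFHS vehicle against ST vehicle was 0.03.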

How the results depend on the processing

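The count of members called in HFHS vehicle against ST vehicle was 0 under all 26 alternatives. In ST pollutants against ST vehicle the 1 call, Abcb11, went to 0 with normexp background correction, median scaling, the authors' deposited table, the replicate block, only the 2 groups in the fit, without the acinar-high arrays and without slide 1, and ranged from 0 to 1 over arrays left out in turn. In HFHS vehicle against ST pollutants the count of 0 went to 1 with quantile normalization (Slco1b2) and where all arrays had to be above background (Abcc3), and ranged from 0 to 1 over arrays left out. The cause was not tested. With 1 array left out of ST vehicle, the others are assumed to vary alike.

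Signs turned for the values below, none of them called in the model described; of these, Slco1b2 in HFHS vehicle against ST pollutants was called with quantile normalization (0.30). In HFHS vehicle against ST vehicle, normexp gave -0.14 for Abcb4, -0.065 for Abcc2 and 0.26 for Slco4a1, slide as a block -0.025 for Abcb4, and quantile normalization 0.017 for Abcc3 and 0.063 for Slc10a1. The authors' deposited table gave 0.066 for Slc10a1, and the fit without acinar-high arrays 0.028 for Abcc3. In ST pollutants against ST vehicle, slide as a block gave -0.0011 for Abcc2 and -0.15 for Slco1a4, and Slc10a1 read 0.0092 in the authors' deposited table and 0.0059 without its repeat probe, an alternative chosen after seeing the data. In HFHS vehicle against ST pollutants, normexp gave -0.12 for Abcc2, -0.13 for Slc10a1 and -0.0064 for Slco1b2. Slc10a1 also read -0.031 as the mean of probes, -0.056 without acinar-high arrays and -0.084 without the repeat probe.

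Over arrays left out in turn, signs turned within these ranges. HFHS vehicle against ST vehicle: -0.013 to 0.055 for Abcb4, -0.063 to 0.031 for Abcc3, -0.0045 to 0.15 for Abcc4, -0.10 to 0.017 for Slc10a1 and -1.62 to 0.65 for Slco1a1. ST pollutants against ST vehicle: -1.37 to 0.91 for Slco1a1, -0.081 to 0.085 for Slco1a4 and -0.048 to 0.027 for Tmem30a. HFHS vehicle against ST pollutants: -0.046 to 0.069 for Abcc2, -0.041 to 0.072 for Slc10a1 and -0.47 to 0.10 for Slco1a1.

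With the replicate block, Abcb11 in ST pollutants against ST vehicle was -0.52 (limma adjusted p = 0.0801), Hsd3b7 in the same comparison -0.69 (0.139), Abcb4 in HFHS vehicle against ST vehicle -0.068, and Slco1a4 and Slco1b2 in ST pollutants against ST vehicle -0.13 and -0.017. The calls over all genes went from 134 to 53, 192 to 44 and 755 to 562 with the replicate block. With slide as a block they went to 84, 67 and 788. Of 5 samples each, 3 in HFHS vehicle and 3 in ST pollutants deviated most like their own number in the other group.

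Calls over all genes in the 3 comparisons ranged from 1 to 152 (134 in the model described), 3 to 236 (192) and 1 to 803 (755), the lowest without the arrays of slide 1. Arrays left out in turn gave 23 to 140, 39 to 175 and 347 to 711. Normexp moved the median of all genes in HFHS vehicle against ST vehicle from -0.02 to 0.09, and in HFHS vehicle against ST pollutants from -0.005 to 0.09, where the calls split into 87 higher and 205 lower in place of 307 and 448. All members were well above background on all arrays.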
